A study of Ciona robusta with 6 samples.

Results

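Across the 16526 gene models counted in sorted anterior neural plate (ANP) cells of *Ciona robusta*, 20 averaged at most 0.3 CPM in control cells and reached a set level in every library of cells that misexpressed *Lhx3/4*. CPM are counts scaled to 1000000 gene reads per library. The genes were selected on the CPM of these same libraries by 3 limits, and 4 models were left out by name. The mean over the control libraries was at most 0.3 CPM, every *Lhx3/4* library held at least 0.5 CPM, and the lowest *Lhx3/4* library was at least 5 times the highest control library. The differences between the groups are therefore given as a description, and no test of them is offered. "Silent" is used here only for a mean control level at or under 0.3 CPM, and 19 of the 20 genes had at least 1 control read. One of them, KH.C2.297, was at 0.738 CPM in control replicate 1, above the limit of 0.5 CPM set for the *Lhx3/4* libraries.

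The *Lhx3/4* libraries (3) hold cells of embryos given *Dmrt>Lhx3/4* beside the reporter *Dmrt>GFP*, and the control libraries (3) hold cells of embryos given the reporter alone. All embryos were wild type and were raised at 18°C, and in both groups the cells were sorted by FACS on GFP. The stage at collection is not given in the labels. The *Dmrt* enhancer drives both transgenes in the ANP lineage, and electroporated plasmids are taken up unevenly among the cells of an embryo. The labels name the libraries biological replicates without saying which embryos each one came from, and the values compare the spread between these libraries.

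The ANP is the front of the neural plate and gives rise to the anterior sensory vesicle and to the palps, the adhesive organs of the larva. *Lhx3/4* encodes a transcription factor with a homeodomain, which binds DNA, and LIM domains, which bind protein partners. In *Ciona* it takes part in specifying the founder cells of the heart and pharyngeal muscle. The comparison asks which genes that are at rest in the ANP lineage have reads there once *Lhx3/4* is present. Fewer cells of a type and less RNA per cell cannot be told apart in such bulk libraries.

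The gene models received 52637768, 69135594 and 71200276 reads in *Lhx3/4* replicates 1, 2 and 3, and 58295081, 62620094 and 68937810 reads in control replicates 1, 2 and 3. At this depth the limit of 0.5 CPM stands for 26.3 to 35.6 reads in an *Lhx3/4* library. A count of 0 allows up to 3 reads, which is 0.0435 to 0.0515 CPM in a control library, and such limits cover counting error only. *Lhx3/4* itself had 681, 608 and 553 CPM in the *Lhx3/4* libraries, against 34.7, 51.3 and 29.2 CPM in the control libraries, and reads of transgene and endogenous gene were not told apart. The ANP markers *Onecut*, *Six3/6*, *Tyrp-1* and the *MSX2* homolog were between 1.61 and 58.6 CPM in the *Lhx3/4* libraries and between 233 and 592 CPM in the control libraries. All of them are on the study's list of the 1000 genes of highest level in controls. Their high control levels therefore do not test the label of the cells. The 2 *TBX6* homologs, genes of the tail muscle and related lineages, were at 0 to 0.19 CPM in the *Lhx3/4* libraries and 0.24 to 1.85 CPM in the control libraries. The part of these markers in the results was not tested.

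Genes switched on were a small part of the silent genome. In control cells 3104 gene models were silent, and 847 of them had no control read at all. Most stayed low with *Lhx3/4*, since 2665 (85.9%) were under 0.5 CPM in every *Lhx3/4* library. A further 290 reached 0.5 CPM in 1 *Lhx3/4* library, 84 in 2 and 65 in all 3. Of these 65, 42 missed the ratio of 5, and 20 are the genes described here, or 0.644% of the silent models. The others of the 65 were left out by name. The same limits with the groups exchanged took 22 of 3186 models silent in *Lhx3/4* cells (0.691%) as switched off. No model was left out by name there, and the rule took similar numbers in both directions.

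**Figure D1:**
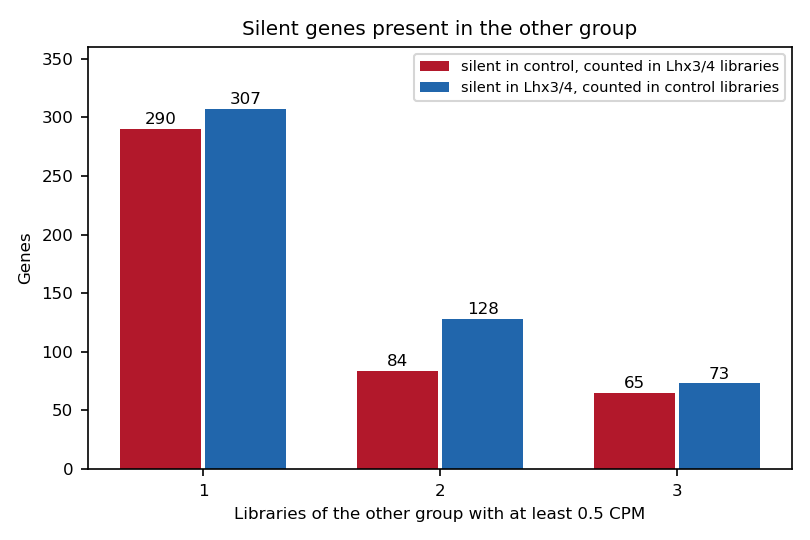
Number of genes (vertical axis) that were silent in one group, at a mean of at most 0.3 CPM, and reached 0.5 CPM in 1, 2 or 3 libraries of the other group (horizontal axis). Red bars are genes silent in control cells counted in *Lhx3/4* libraries (290, 84 and 65), and blue bars are genes silent in *Lhx3/4* cells counted in control libraries (307, 128 and 73).

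As a group, the 20 genes took 68.5, 90.5 and 61.4 CPM together in *Lhx3/4* replicates 1, 2 and 3, against 2.76, 2.41 and 1.25 CPM in control replicates 1, 2 and 3. Mean levels of single genes ran between 0.871 and 8.67 CPM (median 2.70) in *Lhx3/4* cells and between 0 and 0.294 CPM (median 0.0833) in control cells. The cardiopharyngeal marker *Foxf*, a transcription factor of migrating heart progenitors, had 178, 180 and 152 CPM in the *Lhx3/4* libraries and 44.4, 53.5 and 21.2 CPM in control libraries. The markers *Hand.r* and *Irxb* lay between 5.55 and 108 CPM in the *Lhx3/4* libraries and between 0.618 and 28.8 CPM in the control libraries, and each of these 3 genes was above its controls in every *Lhx3/4* library. The 3 genes do not stand for the whole cardiopharyngeal program. The paper names them as raised, and reports other primary targets in these progenitors as unaffected (*Irxa*, *Soxh*, *Gsc*) or lowered (*Elk1*, *Foxp*, *SoxC*). Both *TBX6* homologs are also on the list of cardiopharyngeal progenitor genes and were below their controls in every *Lhx3/4* library. CPM are not corrected for transcript length, and lengths of these models were not used here, so levels are compared only within a gene.

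**Figure D2:**
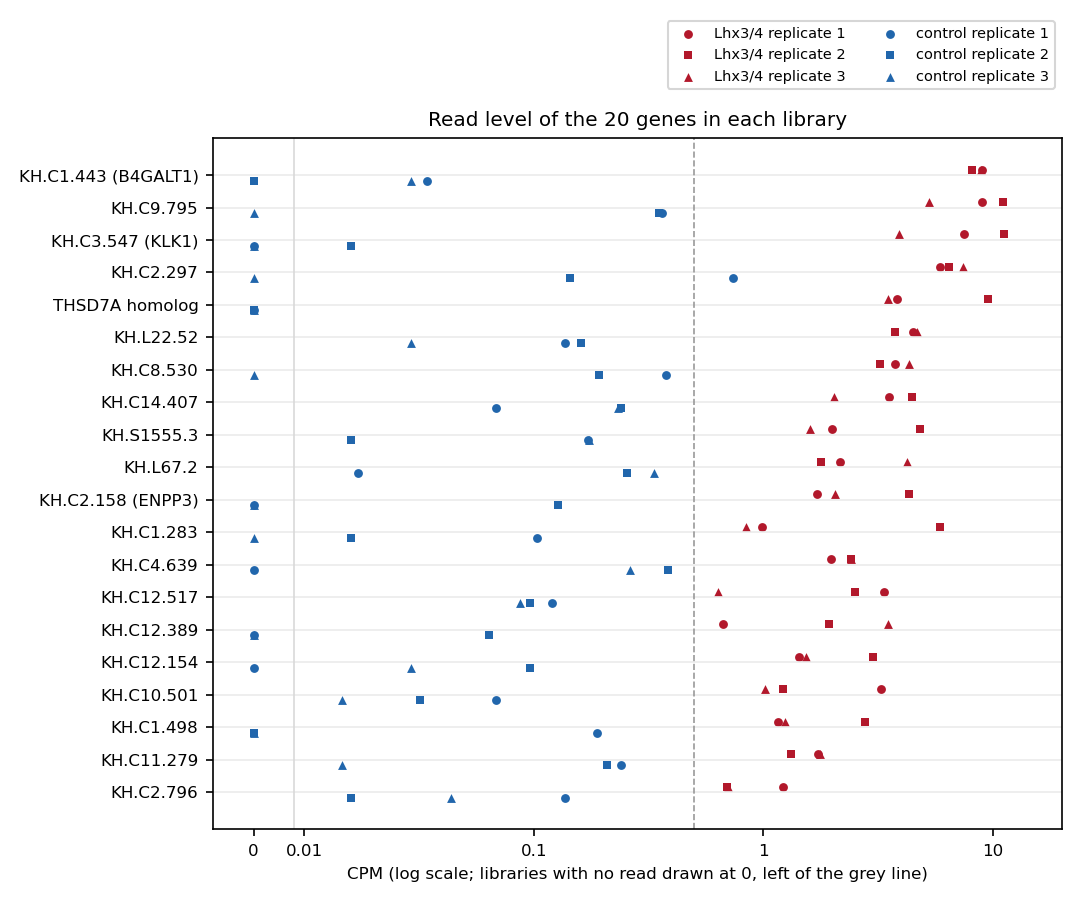
CPM of each of the 20 genes (rows) in the 3 *Lhx3/4* libraries (red) and the 3 control libraries (blue), on a log scale with libraries without reads drawn at 0. All *Lhx3/4* points lie right of the dashed line at 0.5 CPM by the selection rule, and 18 of the 60 control points lie at 0, some on top of each other.

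A human homolog was paired with 4 of the 20 genes, and the other 16 are given by their gene model. The pairs come from the paper, which gave homologs for the genes most changed in its own comparison of these libraries. Which genes bear a name thus depended on the same contrast, and the 4 do not stand for the 20. The 4 homologs encode enzymes or membrane proteins and none is a transcription factor. The roles given below are those of the human proteins.

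The homolog of *THSD7A* (KH.XM_018814799.1) was the single member with no control read. *THSD7A* encodes a membrane protein with thrombospondin repeats, known from endothelial cells and from the podocytes of the kidney. It had 201, 660 and 248 reads in *Lhx3/4* replicates 1, 2 and 3, and 0 reads in each control library. These are 3.82, 9.55 and 3.48 CPM in the *Lhx3/4* libraries, or 5.62 ± 3.41 (SD, n = 3). Against the 3 reads that a count of 0 allows over the control group, it was at least 364-fold higher in *Lhx3/4* cells. Replicate 2 stood above the other *Lhx3/4* libraries, and even the lowest of them held 201 reads.

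The homolog of *KLK1* (KH.C3.547), a kallikrein protease that releases kinins from their precursor, had 395, 776 and 277 reads in the *Lhx3/4* libraries and 0, 1 and 0 reads in the control libraries. From the single control read the ratio was 1425, with a 95% counting interval of 255 to 56306 (exact binomial). The interval is wide because 1 read sets its lower term, and it covers counting error only. In CPM the gene was at 7.54 ± 3.67 in *Lhx3/4* cells and 0.00532 ± 0.00922 in control cells (SD, n = 3 each), and the *Lhx3/4* libraries differed 2.89-fold between the highest and the lowest.

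The homolog of *B4GALT1* (KH.C1.443) encodes a galactosyltransferase of the Golgi, which adds galactose to the sugar chains of glycoproteins. It was counted with 474, 563 and 631 reads in the *Lhx3/4* libraries and with 2, 0 and 2 reads in the control libraries. In CPM it was the most even of the 20 genes among *Lhx3/4* libraries, at 9.0, 8.14 and 8.86 CPM in replicates 1, 2 and 3, a 1.1-fold spread. It averaged 8.67 ± 0.462 CPM in *Lhx3/4* cells and 0.0211 ± 0.0185 CPM in control cells (SD, n = 3 each). Its log2 fold change was 8.50 with a standard error of 0.70 (edgeR).

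The homolog of *ENPP3* (KH.C2.158) encodes an enzyme of the cell surface that cleaves extracellular nucleotides. It had 90, 297 and 146 reads in the *Lhx3/4* libraries and 0, 8 and 0 reads in the control libraries, a difference of 5.87 on the log2 scale (standard error 1.36, edgeR). All control reads were in replicate 2, and without that library the fitted value was 10.42, which rests on no control read and depends on the small count that edgeR adds. It was also the one member on a list of genes expressed in single cardiopharyngeal progenitors. A second model, KH.C2.514, is paired with *ENPP3* as well and carries the neighbouring number in the later KY21 naming of *Ciona* genes. KH.C2.514 was far from silent, at 233, 655 and 237 CPM in the *Lhx3/4* libraries and 11.8, 39.3 and 18.1 CPM in the control libraries. Both models were highest in replicate 2 of either group.

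Reads of KH.C2.158 made up a small part of the reads of both models in *Lhx3/4* cells. The part was 0.729%, 0.652% and 0.857% in replicates 1, 2 and 3 (95% Wilson intervals 0.593% to 0.895%, 0.582% to 0.73% and 0.729% to 1.01%). In control cells the part was 0 of 685 reads in replicate 1, 0.324% in replicate 2 (0.164% to 0.638%) and 0 of 1251 reads in replicate 3, where a count of 0 allows 0.438% in replicate 1 and 0.24% in replicate 3. Over the libraries of a group it was 0.711% in *Lhx3/4* cells (0.653% to 0.774%) and 0.182% in control cells (0.092% to 0.358%). The intervals cover counting error only, and that of control replicate 2 overlapped those of *Lhx3/4* replicates 1 and 2. Since the rule chose KH.C2.158 for few control reads, the difference in this part is a description. Whether reads of the abundant model were counted for KH.C2.158 was not tested, and its values are uncertain on that account.

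**Figure D3:**
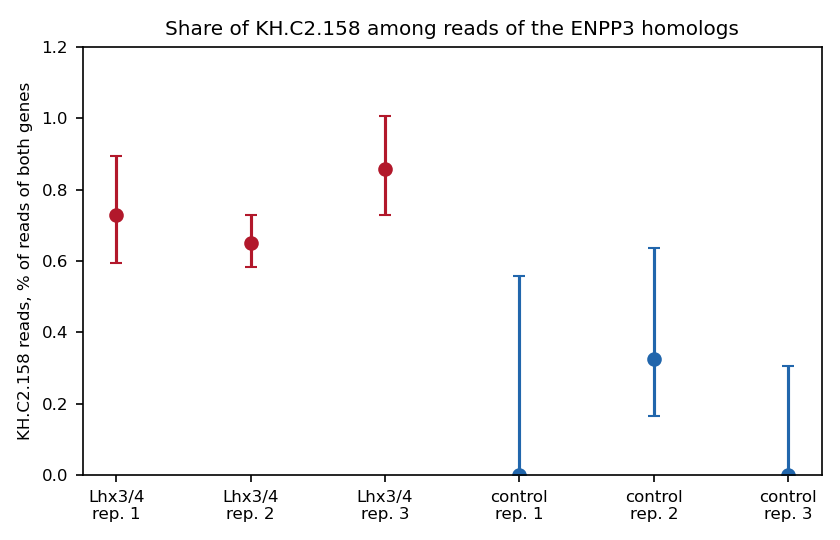
Reads of KH.C2.158 as a percent of the reads of both *ENPP3* homologs (vertical axis) in each *Lhx3/4* library (red) and control library (blue), with 95% Wilson intervals. The part is 0.652% to 0.857% in *Lhx3/4* libraries and 0 to 0.324% in control libraries.

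Of the 16 genes without a paired name, 6 had 4 to 12 control reads in all. KH.C12.389 had 35, 133 and 249 reads in the *Lhx3/4* libraries and 0, 4 and 0 in the control libraries. KH.C10.501 had 171, 84 and 72 reads in the *Lhx3/4* libraries against 4, 2 and 1 in the control libraries. KH.C1.283 had 52, 408 and 60 reads in the *Lhx3/4* libraries and 6, 1 and 0 in the control libraries. In these 3 genes one *Lhx3/4* library, a different one each time, stood above the other *Lhx3/4* libraries, and every control library had at most 6 reads. KH.C12.154 had 75, 208 and 109 reads in the *Lhx3/4* libraries and 0, 6 and 2 in the control libraries. KH.C1.498 had 61, 191 and 88 reads in the *Lhx3/4* libraries and 11, 0 and 0 in the control libraries. KH.C2.796 had 64, 48 and 50 reads in the *Lhx3/4* libraries, the fewest of the 20 genes, and 8, 1 and 3 in the control libraries. The control reads of KH.C1.498 were thus all in replicate 1, and most of those of KH.C2.796 were there too.

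The remaining 10 genes without a name had 19 to 52 control reads, so that a low but countable level was present in control cells. KH.L22.52 had 236, 258 and 332 reads in the *Lhx3/4* libraries against 8, 10 and 2 in the control libraries, a difference of 5.23 on the log2 scale (standard error 0.68, edgeR). KH.C14.407 had 186, 307 and 145 reads in the *Lhx3/4* libraries and 4, 15 and 16 in the control libraries, 4.13 on the log2 scale (standard error 0.68, edgeR). KH.S1555.3 had 105, 332 and 114 reads in the *Lhx3/4* libraries and 10, 1 and 12 in the control libraries. Each of these 3 genes had reads in every control library, with the lowest *Lhx3/4* library 8.50 to 23.4 times the highest control library. KH.C9.795 had 473, 767 and 376 reads in the *Lhx3/4* libraries and 21, 22 and 0 in the control libraries. KH.C2.297 had 308, 445 and 527 reads in the *Lhx3/4* libraries and 43, 9 and 0 in the control libraries. KH.C8.530 had 197, 223 and 306 reads in the *Lhx3/4* libraries and 22, 12 and 0 in the control libraries. Control replicate 3 had no read of these 3 genes, and control replicate 1 had up to 43, so the 3 control libraries did not share one level.

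The last 4 lay close to a limit of the rule or were uneven. KH.L67.2 had 113, 123 and 302 reads in the *Lhx3/4* libraries and 1, 16 and 23 in the control libraries. KH.C4.639 had 104, 166 and 171 reads in the *Lhx3/4* libraries and 0, 24 and 18 in the control libraries. KH.C11.279 had 91, 91 and 126 reads in the *Lhx3/4* libraries and 14, 13 and 1 in the control libraries. In these 3 genes the lowest *Lhx3/4* library was 5.16 to 5.5 times the highest control library, little above the limit of 5. KH.C12.517 had 177, 174 and 45 reads in the *Lhx3/4* libraries and 7, 6 and 6 in the control libraries, and its value in *Lhx3/4* replicate 3, 0.632 CPM, was the lowest *Lhx3/4* value of all 20 genes.

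The few control reads were spread unevenly. Over the 20 genes together there were 14236 reads in *Lhx3/4* libraries and 398 in control libraries. The control reads were 161, 151 and 86 in control replicates 1, 2 and 3. Control replicate 3 had the most gene reads of the controls and yet held no read of 9 of the 20 genes, against 6 in control replicate 1 and 3 in control replicate 2. Reads were found in all 3 control libraries for 8 genes, in 2 for 7 genes, in 1 for 4 genes and in none for 1 gene.

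The selection rule set no limit on how far the *Lhx3/4* libraries may differ among themselves. The highest was 1.1 to 7.0 times the lowest, with a median of 2.28 over the 20 genes. The median was 1.45 over the tested genes, and 2.05 over the 3271 tested genes whose mean *Lhx3/4* level lay in the same range, genes at 0 in an *Lhx3/4* library left out. The median thus lay nearer to that of genes in the same range than to that of all tested genes. Neither of these sets was held to the limits of the rule. The ratio was under 1.5 for 6 genes, *B4GALT1*, KH.C4.639, KH.L22.52, KH.C2.297, KH.C8.530 and KH.C11.279, and at least 2 for 13 genes.

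Every gene had to reach 0.5 CPM in each *Lhx3/4* library, so by the rule no library could carry the group alone. The highest *Lhx3/4* library was replicate 2 for 9 genes, replicate 3 for 7 and replicate 1 for 4. Among tested genes of the same range of level, replicate 2 was highest for 34.0%, replicate 3 for 27.6% and replicate 1 for 38.4%. The *THSD7A*, *KLK1* and *ENPP3* homologs, KH.S1555.3, KH.C1.283, KH.C1.498, KH.C12.154, KH.C9.795 and KH.C14.407 made up the 9 genes highest in replicate 2. KH.C1.283 was the most uneven, with 5.90 CPM in replicate 2 and 0.988 and 0.843 CPM in replicates 1 and 3. Levels of *Lhx3/4* itself were highest in replicate 1 and lowest in replicate 3, an order that only KH.C12.517 and KH.C10.501 among the 20 genes also had.

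**Figure D4:**
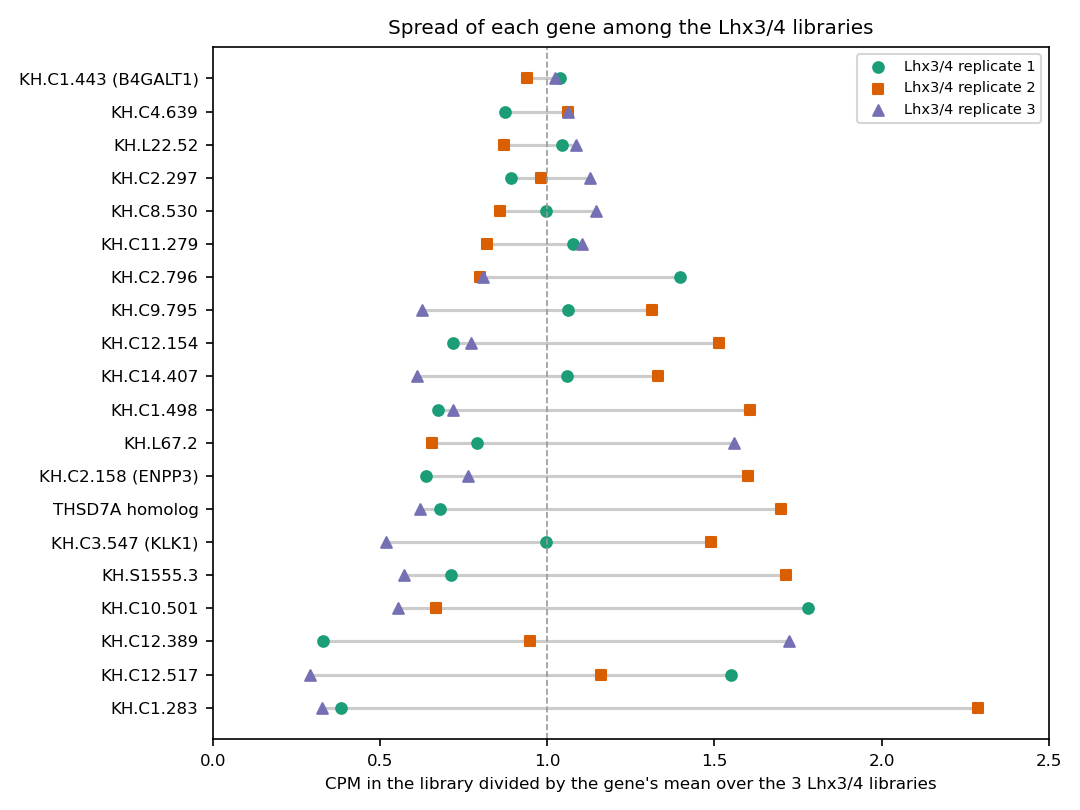
CPM of each gene (rows) in each *Lhx3/4* library divided by its mean over the 3 *Lhx3/4* libraries (horizontal axis, dashed line at 1), ordered from the most even gene at the top to the most uneven at the bottom. The ratio of highest to lowest is 1.1 for *B4GALT1* and 7.0 for KH.C1.283.

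Over all tested genes, the highest *Lhx3/4* and the highest control library bore the same replicate number in 60.8%. For the 20 genes this could be read in 19, and the numbers were the same in 9. The highest control library of some of these genes rests on few reads, as few as 1 for the *KLK1* homolog, so the 2 results are not compared. Replicate numbers went with shared deviations across the transcriptome, so the fit of the counts was also run with the replicate number as a block.

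All 20 genes had at least 100 reads over the 6 libraries, the limit for entering the fit, and none had 100 in the control libraries alone, so each entered through its *Lhx3/4* reads. In edgeR's quasi-likelihood fit 11 of the 20 were called up, a call needing both an adjusted p under 0.05 and 0.58 or more on the log2 scale. The background was 252 of all 13641 tested genes called up (1.85%). With the replicate number as a block all 20 were called (4.72% of tested genes up), and so they were by DESeq2 (3.5% of tested genes up). Since the same contrast chose the genes, nothing is read from these counts. The log2 fold changes ran between 3.31 and 11.47 with a median of 4.92, beside 0.01 over all tested genes, and fitted values for genes with few control reads depend on the small count that edgeR adds. Every *Lhx3/4* library lay above every control library in all 20 by the rule, and in 13.9% of tested genes. In the fit without *Lhx3/4* replicate 1, 2 or 3 only 5, 5 and 7 of the 20 were called, and the homologs of *THSD7A*, *KLK1* and *B4GALT1* and KH.L22.52 were called whichever library was left out.

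At each limit the nearest genes on either side had these values. Just inside the limit on the control mean were KH.C2.297 at 0.294 CPM, KH.C9.795 at 0.237 CPM and KH.C4.639 at 0.215 CPM, and just outside it were KH.C2.14 at 0.316 CPM, KH.C2.619 at 0.369 CPM and KH.C10.391 at 0.381 CPM. KH.C2.14 had 767, 1006 and 646 reads in the *Lhx3/4* libraries and 22, 34 and 2 in the control libraries, more in all than any of the 20 genes. At the limit on the *Lhx3/4* libraries, KH.C12.517 was inside with 0.632 CPM in its lowest library, followed by KH.C12.389 at 0.665 CPM and KH.C2.796 at 0.694 CPM. The homolog of *MFAP4* (KH.C12.405) was outside with 0.478 CPM, and the next were KH.L153.3 at 0.231 CPM and KH.C1.645 at 0.225 CPM. At the limit on the ratio, KH.C2.796 was inside at 5.06, before KH.C4.639 at 5.16 and KH.C12.517 at 5.26, while KH.C2.735 at 4.86 and KH.C2.1091 and KH.C2.396, both at 4.85, were outside. On the control mean and the ratio, genes outside thus lay close to those inside, whereas on the lowest *Lhx3/4* library a single gene lay near the limit. In all, 51 genes missed only the control mean, 41 only the ratio and 850 only the limit on the *Lhx3/4* libraries. A model with no control read meets the ratio at any level, also at 0 reads. The 850 are therefore mostly models with few or no reads, and 663 models had no read in any library.

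The membership depended on where the limits were placed, and 7 of the 20 genes stayed under all settings tried. These were the homologs of *THSD7A*, *KLK1*, *B4GALT1* and *ENPP3* together with KH.L22.52, KH.C10.501 and KH.C12.154. The settings were 8 changes of a limit or of the library size, and each library left out in turn. A limit of 10 on the ratio left 9 genes, and a limit of 0.15 CPM on the control mean left 13.

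**Figure D5:**
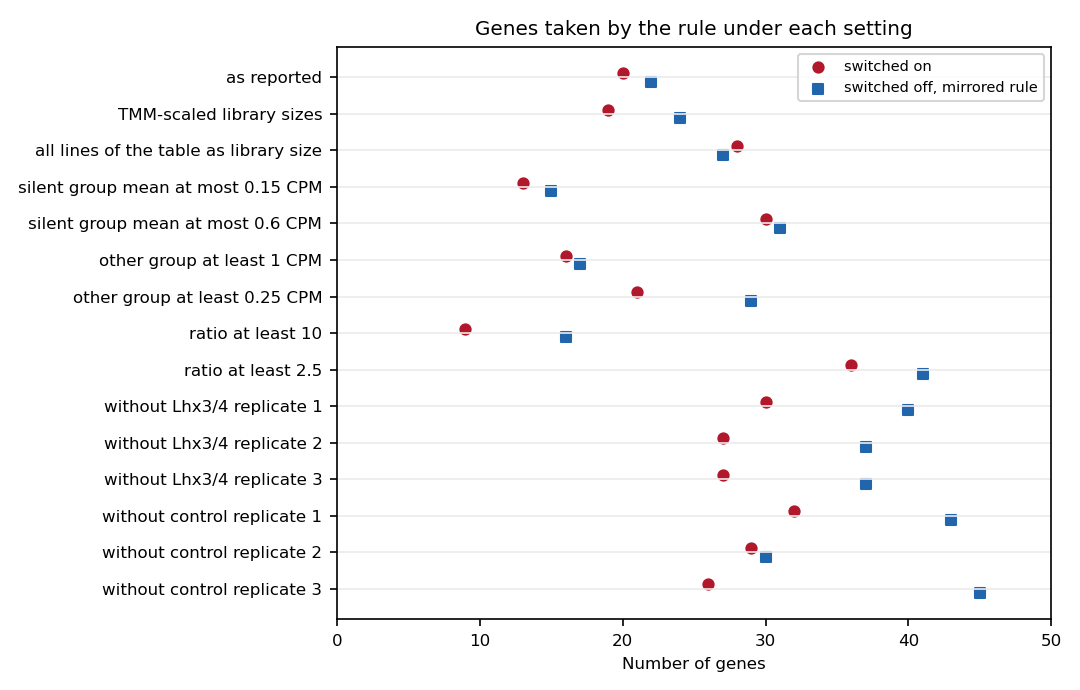
Number of genes taken by the rule (horizontal axis) under each setting (rows), for genes switched on with *Lhx3/4* (red) and for genes switched off by the mirrored rule (blue). The count of genes switched on is 20 as reported and between 9 and 36 over the settings.

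The gene lists of the study held 1 of the 20 genes, and each list held a small share of the silent models. The transcription factor list held 327 models, 35 of them silent in control cells (1.13% of the silent models), and none of these was among the 20. The list of 1629 genes expressed in cardiopharyngeal progenitors held 117 silent models and 1 of the 20, the *ENPP3* homolog, which is 5% of the 20 beside 3.77% of the silent models. None of the 20 was among the 26 *Foxf* targets, of which 2 were silent (0.0644% of the silent models). The 57 neural tube closure genes found in the files, of which 7 were silent (0.226%), held none. The 99 migration and adhesion genes, of which 15 were silent (0.483%), held none either. With shares this small, nothing is read from a list that held none of the 20. The 1000 genes of highest level in controls held no silent model and thus none of the 20. The study chose some of these lists for its own comparisons, and they cover a small part of the gene models.

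By their gene model names, 16 of the 20 genes (80%) belong to a chromosome, beside 49.7% of the silent models and 63.5% of all models. They fell on 10 chromosomes, with at most 3 genes on any one. Of the other 4 genes, 2 bear an L name, 1 an S name and 1 a RefSeq name, the last class making up 21.7% of the silent models. The silent models include 663 with no read in any library, which the rule could not take. No share was taken for models of like level, so nothing is read from these shares.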

How the data were processed

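For each library the authors deposited raw counts of reads in KH2012 gene models, made with HISAT2 alignments on ci3 and HTSeq. No source used here gives versions or the strand setting, so reads of overlapping models on opposite strands cannot be told apart. The submitters' processing notes also name FastQC and DESeq2. The paper names the Takara SMART-Seq HT kit and the labels a New England Biolabs kit for library preparation. Fold changes and p-values of the authors' own comparison were not used. The sheets that report this comparison were, however, the source of the homolog names.

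The 5 HTSeq summary lines (28.5% to 38.2% of all lines' counts per library) were left out of CPM and of the fits. The 20 genes and the lists were chosen with earlier results of these data known. 4 gene models were left out by name and are not reported here. CPM used the sum of the gene rows, with no TMM factor. Genes reaching 100 reads in total were fitted with edgeR 4.0.16 (TMM, quasi-likelihood test, Benjamini-Hochberg adjustment over all tested genes) in R 4.3.3, where a standard error is the log2 fold change divided by the root of F, and DESeq2 1.42.0 was an alternative. The self-tests used simulated data. Genes named in the text are the 20 members, the genes nearest each limit, the markers, and homologs chosen after their values were seen.

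Deviations of log2 CPM (0.5 added) from group means correlated at 0.65, 0.56 and 0.67 between libraries of the same number and at -0.43 to -0.14 between numbers. Deviations cancel out within a group, so positive values at the same number bring negative ones between numbers on average. On the positive values, libraries of 1 number were treated as pairs in an alternative fit. This comes from the data, since the labels tie no number to a day. No library repeated another of its group (chi-square over its degrees of freedom, 131 to 371).

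Homologs come from rows of the paper's supplementary workbook in which a KH ID, a KY ID and a homolog stand together, and that workbook is held here in shortened form. Its transcription factor sheet was used only as a list. None of the 1241 RefSeq-like IDs matched the reference gene table (0), so no coordinates or sequences are given.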

Additional observations from a re-analysis of the deposited data

How the results depend on the processing

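The number of genes switched on was 13 with a control mean of at most 0.15 CPM, 9 with a ratio of at least 10 and 36 with a ratio of at least 2.5, beside 20 as reported. Leaving out 1 library gave 26 to 32 genes, with 32 in the absence of control replicate 1. Fewer libraries have fewer limits to meet, and 17 of the 20 genes were taken whichever library was left out, the exceptions being KH.C2.297, KH.C4.639 and KH.C9.795. The mirrored rule took 41 genes with a ratio of at least 2.5 and 30 to 45 without 1 library, beside 22, with more than 1.5 times as many in each case but without control replicate 2. TMM-scaled library sizes gave 19 genes switched on.

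In the fits, DESeq2 called 478 genes up and 746 down, and the replicate block 644 up and 947 down, beside 252 and 398. All 20 genes were called by DESeq2 and with the block, where 9 had not been called without it, and the cause was not tested. Without 1 library, 144 to 304 genes were called up (304 without control replicate 3, at most 165 without any other), 247 to 426 down (247 without control replicate 2, 262 without *Lhx3/4* replicate 3), and 5 to 9 of the 20 genes up. No log2 fold change of the 20 genes changed sign under any alternative fit. The rule fixed this in advance, since every *Lhx3/4* library was at least 5 times every control library.

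Genes of fewer than 10 control reads carry the largest counting error.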

Other observations

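Some genes with at most 1 control read missed the rule through the limit on the *Lhx3/4* libraries, and 5 of them, chosen after their values were seen, are given here. The homolog of *MFAP4* (KH.C12.405), a protein of extracellular microfibrils, had 236, 150 and 34 reads in the *Lhx3/4* libraries and 0, 0 and 1 in the control libraries. The homolog of *GSTM3* (KH.L134.8), a glutathione transferase, had 1, 155 and 57 reads in the *Lhx3/4* libraries against 0, 1 and 0 in the control libraries. The homolog of *FGFRL1*, a receptor of the FGF receptor family without a kinase domain, had 38, 39 and 12 reads in the *Lhx3/4* libraries and none in the control libraries. The 2 models paired with *MYCBP2*, a ubiquitin ligase known from axon growth, had 8, 33 and 37 reads (KH.C1.640) and 25, 28 and 16 reads (KH.C1.645) in the *Lhx3/4* libraries and 0 in every control library. The homologs of *MFAP4*, *GSTM3* and *FGFRL1* were under 0.5 CPM in 1 *Lhx3/4* library, KH.C1.640 in 2 and KH.C1.645 in all 3, and the *GSTM3* homolog also missed the ratio of 5. That none of these 5 genes had more than 1 control read follows from how they were chosen. The rule for the 20 switched-on genes allowed more, and 3 of them had more than 40.

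Genes that were silent in controls and reached 0.5 CPM in a single *Lhx3/4* library numbered 82 in replicate 1, 130 in replicate 2 and 78 in replicate 3. Those that reached it in every *Lhx3/4* library but 1 numbered 28 with replicate 1 missing, 22 with replicate 2 missing and 34 with replicate 3 missing.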
